A study of Mus musculus with 40 samples.

Results

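The comparison described here set the pancreas of high-fat-fed male mice born to dams on a high fat (HF) diet against that of high-fat-fed males born to dams on a low fat (LF) diet. Its members were chosen by the label for the animal's own diet, HF, and make up 20 of the 40 arrays of the series, 1 array per animal. HF_HF mice (HF dam, HF diet after weaning; n = 10) and LF_HF mice (LF dam, HF diet after weaning; n = 10) were C57BL/6J males killed after a fast at 9 weeks of age, and coconut oil was the main fat of both diets. The dams were on their diet before mating and until weaning, so exposure before birth and through milk cannot be told apart. The HF_HF animals came from birth cages 10, 20, 21 and 23, with 1, 3, 3 and 3 animals, and the LF_HF animals from cages 4, 9, 11 and 14, with 2, 3, 3 and 2 animals. Each cage held 1 dam diet only, so no comparison within a cage was possible, and animals of 1 cage shared it from birth.

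The pancreas is mostly made of acinar cells, which synthesize and secrete digestive enzymes, with a small share of endocrine islets that release insulin, glucagon and somatostatin. Acinar cells make more secreted protein than almost any other cell and depend on the unfolded protein response and the integrated stress response, which match protein synthesis to folding capacity and amino acid supply. The tissue also has a circadian clock that times its secretion and metabolism. The question asked of these arrays was whether the diet of the dam left a trace in this tissue when all offspring ate the same high fat food.

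The labelled tissue was borne out by its markers. Of the 28 digestive enzyme genes on the list 22 were tested, and 20 of these were among the brightest 100 probes on each of the 20 arrays. Prss2, a trypsinogen, had a normalized signal of 25802.2 at the lowest and 31926.9 at the highest in HF_HF, against 23978.8 and 30445.7 in LF_HF. Signals were quantile normalized over all arrays without background subtraction, so the differences of weakly expressed genes are compressed. At the other end, quantile normalization gives every array nearly the same set of highest values, up to 35587.5, so that the value of a very bright probe reflects its rank among the brightest probes. The arrays farthest from the median array were HF_HF 5, LF_HF 1 and HF_HF 8, at a root mean square log2 distance of 0.255, 0.25 and 0.193.

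No probe passed the test for an effect of the dam's diet. Of 12246 probes tested, 8858 of them standing for 1 gene each, limma called 0 at an adjusted p under 0.05 (0%), and the lowest adjusted p was 0.6184. An unadjusted p under 0.05 was reached by 761 probes (6.21%), where 612.3 would be expected of as many true nulls, and of these 316 were higher (2.58%) and 445 lower (3.63%) in HF_HF. With birth cage as a random block limma also called 0 (0%), with 761 probes at an unadjusted p under 0.05. The consensus correlation within cages was -0.000482, so this fit was nearly the same as the first. It is therefore not a separate check on birth cage. A regularized test after Cyber-T, the kind of test the study's methods describe, called 0 with 353, fewer than the 612.3 expected. The paper itself reports differentially expressed pancreas genes for this comparison, and the reason for the discrepancy was not tested. In 0 probes did the 10 HF_HF animals lie wholly above or below the 10 LF_HF animals (0%). The 4 HF_HF cage means lay wholly above the 4 LF_HF cage means in 151 probes and wholly below them in 217 (3.01% together).

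Taken over animals, the arrays set narrow bounds on the differences in signal. The median 95% interval reached 0.0944 on the log2 scale (1.07-fold) to either side of its estimate. For 11220 probes (91.6%) the whole interval lay within 1.2-fold in either direction, and for 12119 (99%) within 1.5-fold. These intervals treat the 10 and 10 animals as independent, although the dam diets fell on 4 and 4 birth cages. They bound the array signal, which is compressed for weak and for very bright probes, and not the RNA level itself. Only 82 estimates were beyond 1.2-fold and 6 beyond 1.5-fold. The most extreme were Lgals3, a macrophage and epithelial lectin, 1.89-fold higher, and Chac1, 1.72-fold lower. The log2 difference of Lgals3 was 0.92 with all animals, 0.53 without HF_HF 5 and 0.21 without HF_HF 5 and HF_HF 8.

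As nothing was called, the genes below are those with the smallest p in each direction, and their values describe these animals. They were picked on these same animals. The share of all probes with 10 of 10 HF_HF animals beyond the LF_HF median was not counted. Rae1, which carries mRNA to the nuclear pore, had the smallest p of all. Its signal ran from 102.6 through a median of 115.6 to 130.1 in HF_HF, against 122.5, 135.2 and 157.6 in LF_HF. All 10 HF_HF animals lay below the LF_HF median, although the ranges overlapped. The difference was -0.24 (log2, SE 0.05, unadjusted p = 8.258e-05, adjusted p = 0.6184). One of the probes of the histone gene H3c14 had the same adjusted p (log2 -0.23), but the brighter probe that stands for that gene pointed the other way (0.08).

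Cish, a cytokine-induced inhibitor of JAK-STAT signalling, had the largest difference among the 12 lower genes. Its signal ran from 159.7 through 208.2 to 317.9 in HF_HF, against 209.7, 320.8 and 606.1 in LF_HF. Again 10 of 10 HF_HF animals lay below the LF_HF median, and the cage means did not overlap, at 188.3 to 250.9 in HF_HF cages and 285.9 to 594.3 in LF_HF cages. Both animals of LF_HF cage 4 stood far above the rest. The difference was -0.66 (log2, SE 0.17, adjusted p = 0.7498). A pair of relatives was looked up after this was seen: Socs2 differed by -0.08 (SE 0.11) and Socs3 by -0.02 (SE 0.05).

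The other lower genes spanned several functions, with log2 differences between -0.30 and -0.15. Gtf3c5, a subunit of the RNA polymerase III factor TFIIIC, was at -0.30, and Upf2, of nonsense-mediated mRNA decay, at -0.28. The mitochondrial carrier Slc25a45 was at -0.25, the membrane estrogen receptor Gper1 at -0.23 and the dioxygenase Jmjd6 at -0.20. Habp2, a secreted serine protease, was at -0.19, Gfod2 at -0.17, the ubiquitin ligase Dtx2 at -0.16, the splicing-related Sugp2 at -0.15 and the AAA+ ATPase Ruvbl1 at -0.15. Between 8 and 10 of the 10 HF_HF animals lay below the LF_HF median for each of them, and each had an adjusted p of 0.7498. The other probes of Ruvbl1 were at 0.0021 and -0.078. Gfod2 and Ruvbl1 had weak signals, with cage means of 69.75 to 85.93 and 65.95 to 79.55.

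Among the 12 higher genes, Gorasp2, a protein that holds Golgi cisternae in stacks, had the smallest p. Its signal ran from 1024.4 through 1314 to 1647.6 in HF_HF, against 937.6, 1076 and 1181.8 in LF_HF. Of the HF_HF animals, 9 of 10 lay above the LF_HF median, and 2, from cages 20 and 21, lay within the LF_HF range. The difference was 0.32 (log2, SE 0.08, adjusted p = 0.7498), and its 3 other probes were also higher. Ang, a secreted ribonuclease, differed by 0.32 (SE 0.08), and Tmed9, a cargo receptor between the endoplasmic reticulum (ER) and Golgi, by 0.25 (SE 0.08).

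Bcl6, a transcriptional repressor, had the largest difference of the 12. Its signal ran from 68.6 through 114.4 to 131.2 in HF_HF, against 63, 74.75 and 119.9 in LF_HF. Of the HF_HF animals, 8 were at 84.5 or above and 2 were at 68.6 and 77.2, and the highest LF_HF value came from LF_HF 1, the array with high liver signal. The difference was 0.45 (log2, SE 0.12, adjusted p = 0.7498) and 0.52 without that array. The cage means of Bcl6 overlapped (exact permutation test on 4 against 4 cage means, two-sided, p = 0.1429).

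The remaining higher genes differed by 0.25 or less. Sat1, which acetylates polyamines for their breakdown, was at 0.25, the calcium-binding Sri at 0.24, Sphk1, which makes sphingosine-1-phosphate, at 0.22, and Snn at 0.21. Trappc2l, of a vesicle-tethering complex, was at 0.14, the amino acid transporter Slc6a15 at 0.12, Nfe2l2, the antioxidant regulator NRF2, at 0.11 and the crystallin gene Cryba2 at 0.09. For Slc6a15, Sri, Trappc2l and Nfe2l2 all 10 HF_HF animals lay above the LF_HF median. Slc6a15, Nfe2l2 and Cryba2 had weak signals, with cage means of 62.93 to 72.52, 67.1 to 78.9 and 60.45 to 68.6. No detection p-values were used, so whether these 3 genes were detectably expressed was not tested. The Sphk1 gene had a second probe at -0.0092.

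**Figure D1:**
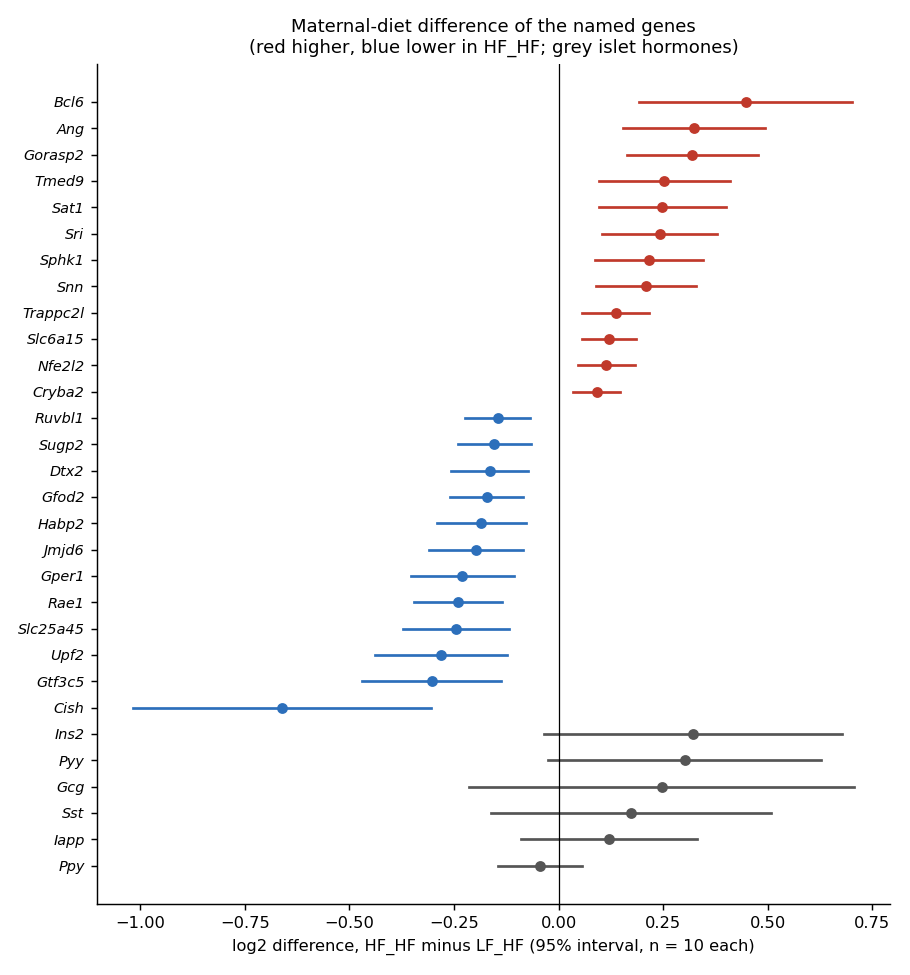
The points are log2 differences of signal, HF_HF minus LF_HF (n = 10 each), and the lines their 95% intervals, for the 12 higher genes (red), the 12 lower genes (blue) and 6 islet hormone genes (grey). Cish (-0.66) and Bcl6 (0.45) lie farthest from 0, and although the intervals of the 24 chosen genes leave out 0, no gene passed after correction over 12246 probes.

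Birth cage was taken into account by giving each cage 1 mean. In 14 of the 24 genes the 4 HF_HF and 4 LF_HF cage means did not overlap, against 3.01% of all probes, but these genes had been picked for small p on the same animals. The 1 call that appeared when a cage was left out was Ranbp3l, a nuclear transport protein, without HF_HF cage 21 (log2 -0.60, adjusted p = 0.0333, against -0.41 and 0.7498 with all animals). An exact permutation test of 4 against 4 cages cannot give less than p = 0.02857, and over the 30 named genes, hormones included, the lowest adjusted p was 0.06122. The consensus correlation within cages was -0.000482 over all probes. Individual genes nonetheless differed strongly between cages of 1 group. Cish averaged 594.3 in LF_HF cage 4 and 285.9 to 301.6 in the other LF_HF cages, and Dbp averaged 313.4 in cage 11 and 1127 in cage 14.

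**Figure D2:**
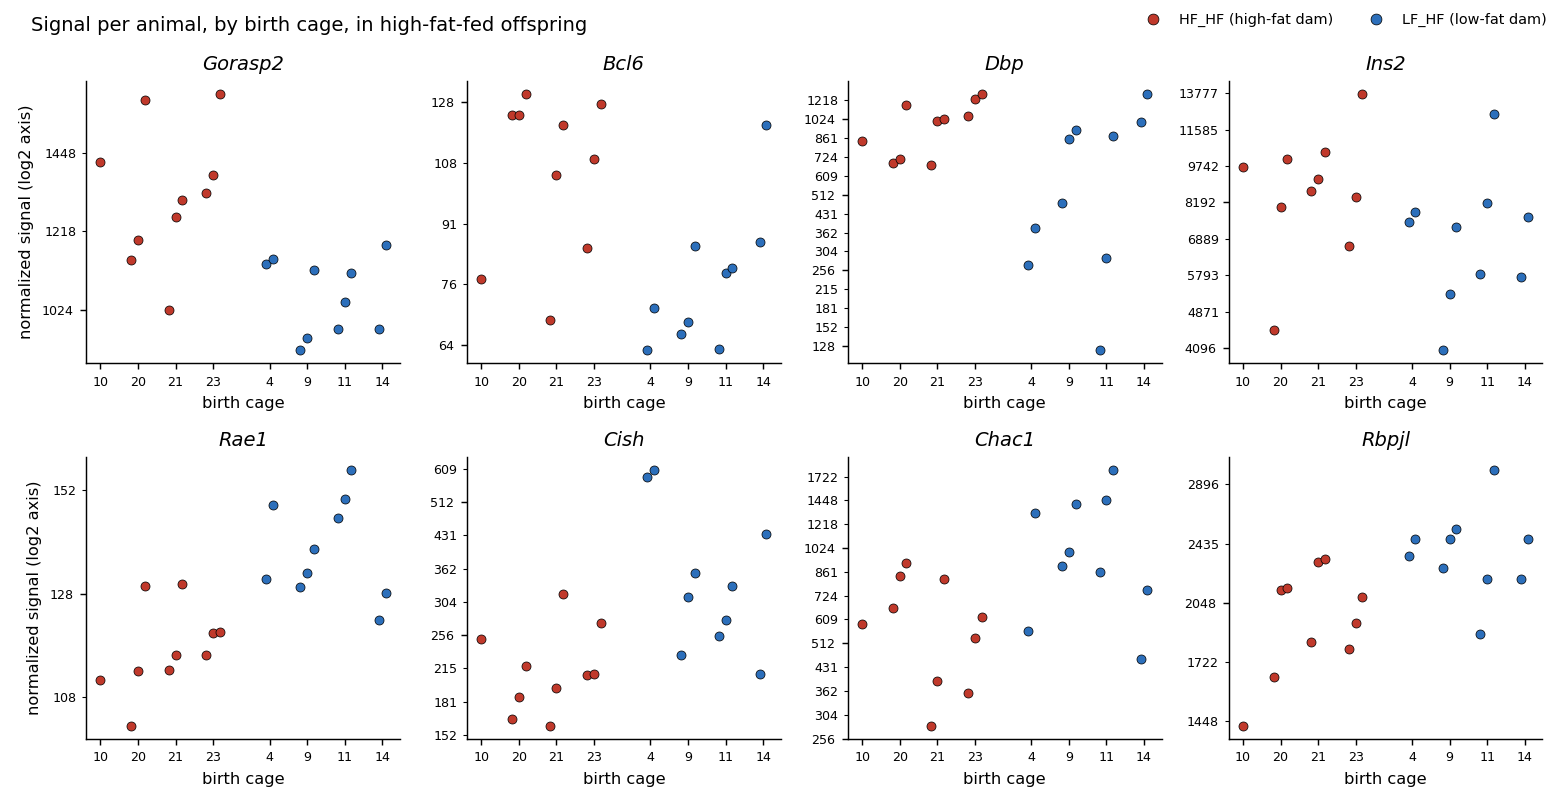
Each point is the normalized signal (log2 axis) of 1 animal, placed by birth cage with HF_HF cages in red on the left and LF_HF cages in blue on the right, for 4 genes higher (top) and 4 genes lower (bottom) in HF_HF. Points within a cage are spread in order of their value only. The groups overlap in every panel, and both LF_HF animals of cage 4 have the highest Cish signal.

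Genes of the circadian clock were mostly higher in HF_HF without passing the test, by an amount that was smaller without LF_HF cage 11. Over all 8858 genes 4266 were higher and 4592 lower, with a median of -0.00242. Of 10 core clock genes 8 were higher (median 0.0924), and of 8 output genes, which the clock drives, 6 were higher (median 0.118), with 0 called in either list. Without LF_HF cage 11 the median was 0.0492 over the core genes and -0.00676 over the output genes. Dbp, a PAR-bZIP transcription factor and output of the clock, had a signal of 672.1, 1011 and 1283.3 (lowest, median, highest) in HF_HF, against 123.7, 662.8 and 1277.2 in LF_HF. All 10 HF_HF animals lay above the LF_HF median, but 5 LF_HF animals from cages 9, 11 and 14 reached the HF_HF range, and the other 5 were below it. The difference was 0.85 (log2, SE 0.32, adjusted p = 0.7654) and 0.53 without cage 11, and the cage means overlapped (exact permutation test, p = 0.2).

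Among the other clock genes, Usp2, a clock-controlled deubiquitinase, differed by 0.45 (SE 0.16), Per2 by 0.22 (SE 0.11), Per3 by 0.13 (SE 0.04) and Cry2 by 0.10 (SE 0.04); the last 3 encode repressors of the clock loop. Clock, the activator of that loop, was lower at -0.21 (SE 0.07), and so was Nfil3, a repressor of the genes that Dbp activates, at -0.16 (SE 0.10). Per3 and Cry2 had weak signals, with cage means of 60.54 to 72.12 and 68.25 to 79.1. Whether they were detectably expressed was not tested. Without cage 11 Usp2 was at 0.32, Per2 at 0.12, Per3 at 0.12, Cry2 at 0.07, Clock at -0.19 and Nfil3 at -0.06. Bhlhe40, another repressor, was at 0.16 (SE 0.12), and without cage 11 it was at -0.01. LF_HF cage 4 averaged about as low as cage 11 for Dbp (319.3 against 313.4) and Usp2 (156.2 against 156.7). It did not for Bhlhe40 (115.3 against 78.5). The list medians were not taken without cage 4. The clock output level of LF_HF ran from -0.61 in LF_HF 8 and -0.407 in LF_HF 9, both of cage 11, to 0.27 relative to the mean of the 20 arrays, and that of HF_HF from -0.128 to 0.231. The time of day of tissue collection is not given in the sources used here, and its part in these values was not tested.

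Islet genes were mostly higher in HF_HF without passing the test. Of 14 islet hormone and granule genes 12 were higher, with a median of 0.169, and 0 were called. Ins2, 1 of the 2 mouse insulin genes, had a signal of 4464.1, 8903 and 13729.2 (lowest, median, highest) in HF_HF, against 4060.1, 7377 and 12455.1 in LF_HF. The ranges nearly coincided, with 8 of 10 HF_HF animals above the LF_HF median, and the difference was 0.32 (log2, SE 0.17, adjusted p = 0.8184). In whole tissue, more islet cells and more RNA per islet cell cannot be told apart.

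The other hormone genes gave differences of 0.30 (SE 0.16) for Pyy, which encodes peptide YY, 0.25 (SE 0.22) for glucagon (Gcg), 0.17 (SE 0.16) for somatostatin (Sst), 0.12 (SE 0.10) for amylin (Iapp) and -0.04 (SE 0.05) for pancreatic polypeptide (Ppy). Ins1 was not analysed here. Of the granule genes, Scg3 differed by 0.17 (SE 0.07), Scg5 by 0.19 (SE 0.09) and the zinc transporter Slc30a8 by 0.12 (SE 0.06). Ttr, a plasma carrier made by islets and liver, was lower, at 426.6, 469.2 and 659.4 in HF_HF, against 398.3, 666.2 and 1979.4 in LF_HF. Its highest value was that of LF_HF 1, and its difference was -0.42 (SE 0.20) with that array and -0.24 without it. The level of the islet list ranged from -0.426 in HF_HF 5 to 0.447 in HF_HF 2, and from -0.334 to 0.413 in LF_HF. The 8 islet transcription factors and glucose sensors had a median of 0.01.

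Most of the digestive enzyme genes lie at the top of the array's scale, where differences in level can be compressed. The 22 digestive enzymes had a median of -0.00628, with 9 higher, 13 lower and 0 called, and their array means stayed between -0.0423 and 0.0462 in HF_HF and between -0.0374 and 0.038 in LF_HF. Pnliprp1, a lipase-related protein, differed by 0.10 (SE 0.05), Prss2 by 0.10 (SE 0.05), the elastase Cela3b by 0.09 (SE 0.05), the amylase Amy1 by 0.25 (SE 0.15) and the zymogen granule protein Gp2 by 0.08 (SE 0.06). Of the 22 enzymes, 18 had a mean signal above 20000, and 21 had a value that 2 or more arrays shared exactly. Pnliprp1, for example, was at 24854.9 in 4 LF_HF arrays. For such probes a small difference does not show that the level was the same. Amy1 was not such a probe, with a mean signal of 346.3.

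Of 14 acinar transcription factors and genes of the secretory machinery 10 were lower, with a median of -0.0193. Rbpjl, the DNA-binding subunit of the acinar complex PTF1, had a signal of 1428.1, 2007 and 2327.4 (lowest, median, highest) in HF_HF, against 1869.3, 2408 and 3024.5 in LF_HF. All 10 HF_HF animals lay below the LF_HF median and the cage means did not overlap (3.01% of all probes), in a gene picked by p. The difference was -0.29 (SE 0.09, adjusted p = 0.7498), whereas a second, dimmer probe gave -0.057. Its partner Ptf1a was at -0.23 (SE 0.14) and Nr5a2, a nuclear receptor of acinar identity, at -0.20 (SE 0.08), with other Nr5a2 probes at 0.0074 and -0.052.

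Of 16 genes of the integrated stress response 11 were lower, with a median of -0.0503 and 0 called. The median was 0.0259 with 1 mean per birth cage and 0.016 without LF_HF cage 11, so the list had no settled direction. Chac1, which breaks down glutathione and is induced by the factor ATF4, had a signal of 280.8, 605.2 and 916.6 (lowest, median, highest) in HF_HF, against 455.7, 945.4 and 1812 in LF_HF. All 10 HF_HF animals lay below the LF_HF median, but the cage means overlapped, at 446.9 to 797.4 in HF_HF and 587.3 to 1316 in LF_HF. The difference was -0.79 (SE 0.24, adjusted p = 0.7498), and -0.91 without LF_HF 1. The lowest signal was that of HF_HF 8, and the difference was -0.68 without that array. The secreted Stc2 was at -0.23 (SE 0.09), the lipoprotein receptor Vldlr at -0.18 (SE 0.09) and the mTORC1 inhibitor Ddit4 at -0.16 (SE 0.09).

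Of 23 genes of serine, one-carbon and amino acid metabolism 16 were lower (median -0.0631, 0 called). Slc1a4, a transporter of neutral amino acids, was at -0.18 (SE 0.05), Cbs, of the transsulfuration pathway, at -0.18 (SE 0.08), and the alanine aminotransferase Gpt2 at -0.14 (SE 0.05). For these 3 genes 10 of 10 HF_HF animals lay below the LF_HF median and cage means did not overlap. The cage means did not overlap in 3.01% of all probes, but these genes were picked for small p on the same animals. Ahcy, which clears S-adenosylhomocysteine, was higher, at 0.21 (SE 0.08). No difference in these lists passed the test.

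The unfolded protein response did not go one way, with 10 of 21 genes higher and 11 lower (median -0.0143, 0 called). Creld2, a secreted ER chaperone, was at 318.8, 410.6 and 539.3 in HF_HF, against 383.1, 532.8 and 743.5 in LF_HF (log2 -0.34, SE 0.12), and its second probe was at -0.25. Dnajc3, an inhibitor of the kinase PERK, was at -0.24 (SE 0.09). In contrast Dnajb9, an ER co-chaperone induced through XBP1, was at 214.5, 345.8 and 477.6 in HF_HF, against 172.3, 256.8 and 329.4 in LF_HF (log2 0.40, SE 0.16). The adjusted p of the 3 genes lay between 0.7498 and 0.768.

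Stretches of the promoters of Creld2, Dnajc3 and Chac1 are printed because these genes had the smallest p among the lower members of the 2 stress lists and hold the element by which their pathway is known to act. Sequences are from RefSeq (GRCm38.p6), 5′ to 3′ on the gene's strand, and capitals mark the fixed letters of the match. The ER stress element was searched as CCAAT and CCACG with 9 bases of any kind between them and the C/EBP-ATF site as TTGCATCA, both on either strand, in the 300 bases around each gene start (250 before it and 50 after it).
Creld2, chr15:88819476-88819575, plus strand: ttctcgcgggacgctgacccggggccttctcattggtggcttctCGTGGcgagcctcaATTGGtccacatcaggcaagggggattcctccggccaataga
Dnajc3, chr14:118937782-118937881, plus strand: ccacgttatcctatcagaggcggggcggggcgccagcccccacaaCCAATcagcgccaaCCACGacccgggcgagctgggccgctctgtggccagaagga
Chac1, chr2:119351002-119351101, plus strand: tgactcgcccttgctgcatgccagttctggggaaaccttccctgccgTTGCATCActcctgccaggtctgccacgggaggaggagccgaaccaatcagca
The match lies in Creld2 on the minus strand. The ER stress element was found in 0.119% of 32851 RefSeq promoters and in 8 of the 20 unfolded protein response genes with a promoter, among them Hspa5, Calr and Pdia6. The C/EBP-ATF site was found in 0.895% of promoters and in 4 of 15 integrated stress response genes (Chac1, Fgf21, Nupr1 and Vldlr). A match is a description of the letters and was not tested for use.

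Lipid and insulin signalling genes differed by small amounts. Of 18 genes of fatty acid oxidation 13 were higher (median 0.0456, 0 called). Hadhb, of the mitochondrial trifunctional protein, was at 0.34 (SE 0.16), the dehydrogenase Acadl at 0.11 (SE 0.05) and the thioesterase Acot2 at 0.09 (SE 0.04). The single animal of HF_HF cage 10 had the highest level of this list, at 0.412, and the next HF_HF animal was at 0.142. Of 18 cholesterol synthesis genes 11 were lower (median -0.0135), with Fdps, which makes farnesyl diphosphate, at -0.28 (SE 0.09).

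Of 21 genes of insulin signalling and FoxO targets 14 were lower (median -0.0194, 0 called). The EGF receptor Egfr was at -0.20 (SE 0.07), its inhibitor Errfi1 at -0.30 (SE 0.12), the glucose-responsive Txnip at -0.32 (SE 0.14) and the kinase Pdpk1 at -0.13 (SE 0.05). The other probes of Egfr were at -0.025 and -0.0054, and Errfi1 was at -0.20 without LF_HF 1. Of the 7 nuclear receptors of the RXR group, which includes RXRs and receptors that pair with them, 4 were lower. Rxrb was at -0.16 (SE 0.05) and Rxra at 0.04 (SE 0.04).

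The large gene families of housekeeping function were centred on 0. The median was 0.000679 over 52 cytosolic ribosomal protein genes, -0.00575 over 69 genes of the respiratory chain and ATP synthase, and 0.00284 over 29 proteasome genes. Single members stood off, such as Rpl10 at 0.23 (SE 0.08), the complex III subunit Uqcrh at 0.17 (SE 0.05) and the ATP synthase subunit Atp5g1 at -0.23 (SE 0.07). Imprinted genes (7 of 14 higher, median 0.000192) and genes of the DNA methylation machinery (4 of 7 higher, median 0.00669) had 0 called. The Reg genes, secreted proteins of stressed acinar cells, varied widely between animals. Reg2 ran from 1075.4 to 26992.9 in HF_HF and from 2395.2 to 28885.4 in LF_HF (log2 -0.49, SE 0.53). The animals HF_HF 6 and HF_HF 8 had the lowest Reg2 signals, at 1075.4 and 1530.9, and the difference was -0.27 without HF_HF 8 and -0.16 without LF_HF cage 11. Mt2, a metallothionein, was at -0.20 (SE 0.08).

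**Figure D3:**
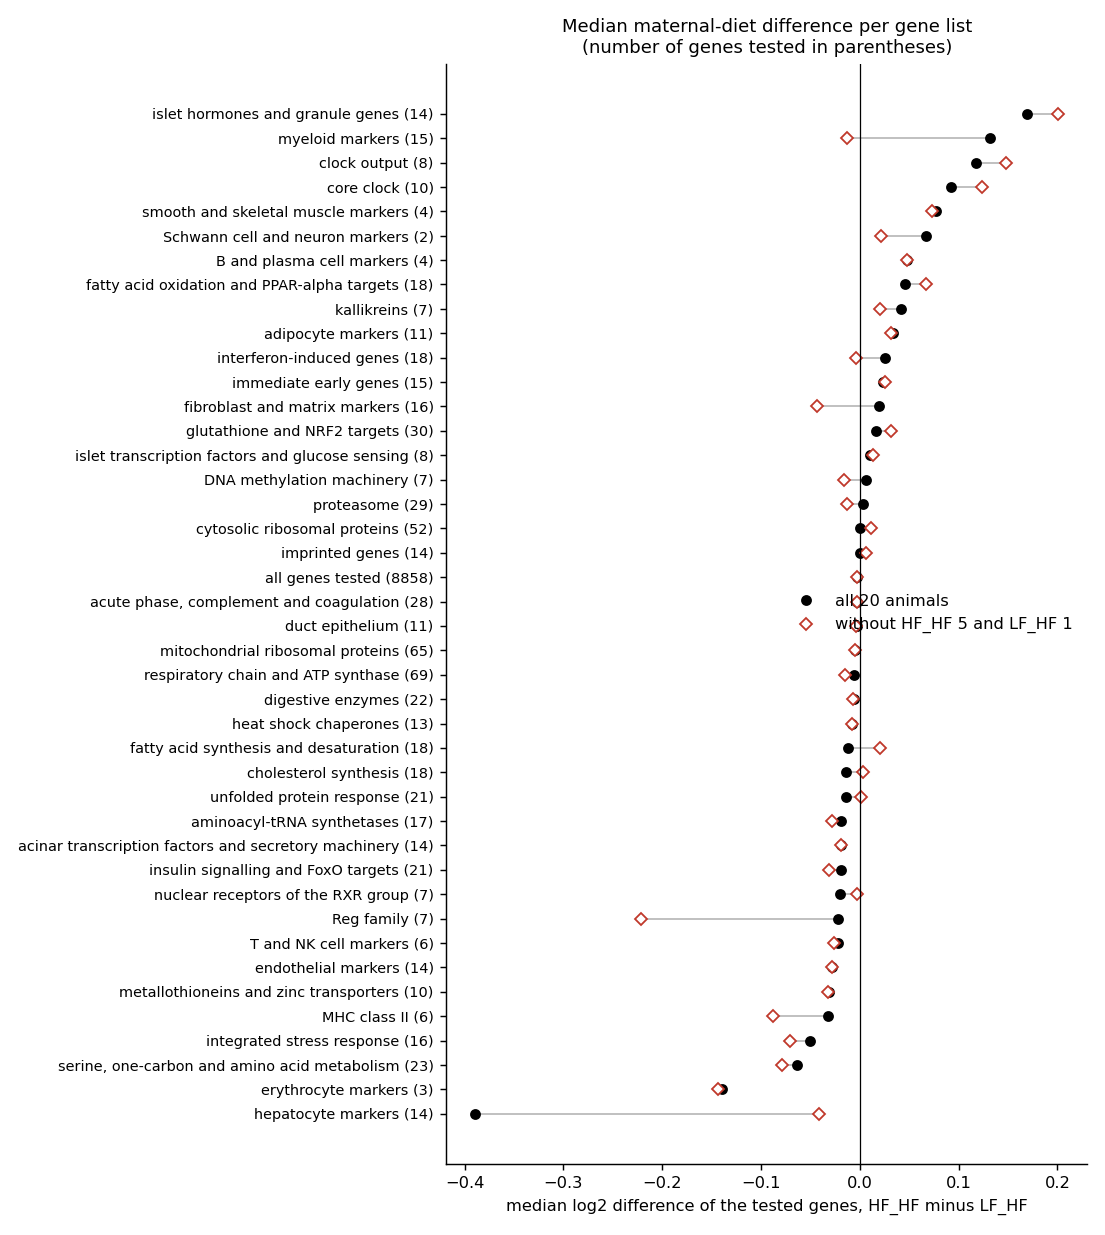
Black points are the median log2 differences, HF_HF minus LF_HF, of the tested genes of each list over all 20 animals, and open diamonds the same without HF_HF 5 and LF_HF 1. The islet median (0.169) and the clock medians (0.118 and 0.0924) are 0.201, 0.148 and 0.124 without the 2 arrays, while the hepatocyte median moves from -0.389 to -0.0414 and the myeloid median from 0.132 to -0.0125.

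Markers of other cell types followed single arrays. Of 14 hepatocyte genes 14 were lower in HF_HF, with a median of -0.389. Their mean level ran from -0.508 to 0.224 in HF_HF and from -0.723 to 2.99 in LF_HF, where the highest value was that of LF_HF 1 and the next was 0.776. Apoa1, of high density lipoprotein, had a signal of 1773 in LF_HF 1 and at most 133.2 in HF_HF. Without that array 11 of 14 were lower and the median was -0.061, with Apoa1 at -0.23 instead of -0.62 and Ambp, another plasma protein, at -0.16 instead of -0.38.

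Of 15 myeloid genes 15 were higher in HF_HF (median 0.132), with array means from -0.421 to 1.69 in HF_HF and from -0.404 to 0.311 in LF_HF. The highest was HF_HF 5, in which Lgals3 had a signal of 2466.4, against 123.2 at the median of HF_HF and 105.6 at that of LF_HF. The next HF_HF animals for Lgals3 were HF_HF 8 at 946.1 and HF_HF 3 at 487.8. Without HF_HF 5, 6 of 15 were higher (median -0.023) and Lgals3 was at 0.53 instead of 0.92. It was at 0.68 without HF_HF 8 and at 0.25 without LF_HF 1, HF_HF 5 and HF_HF 8. HF_HF 5 also had the lowest islet level. HF_HF 8 was highest in the 4 muscle genes (1.01, the next HF_HF animal at 0.322) and in the epithelial lectin Lgals4. Its signal of Acta2, smooth muscle actin, was 1171 against an HF_HF median of 121.7. The log2 difference of Acta2 was 0.43, 0.11 without HF_HF 8 and -0.0156 without HF_HF 5 and HF_HF 8. Without LF_HF 1, HF_HF 5 and HF_HF 8 limma again called 0 probes, with 857 at an unadjusted p under 0.05 and a lowest adjusted p of 0.3249.

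**Figure D4:**
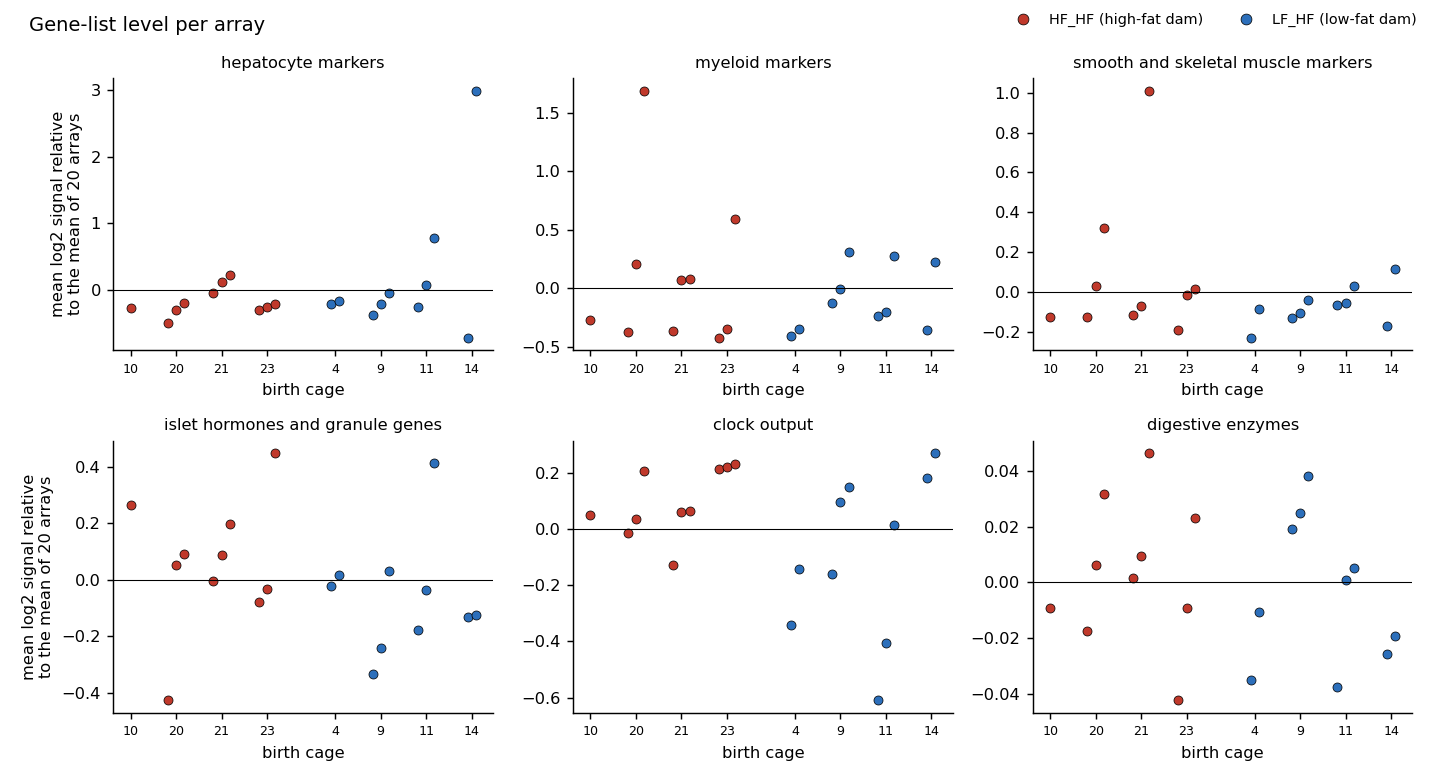
Each point is the mean log2 level of a gene list in 1 animal relative to the mean of the 20 arrays, by birth cage, with HF_HF in red on the left and LF_HF in blue on the right. Single arrays stand apart in the hepatocyte list (2.99 in LF_HF), the myeloid list (1.69 in HF_HF) and the muscle list (1.01 in HF_HF). The digestive enzymes, most of whose probes lie at the top of the scale, stay within 0.05 of 0.

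The same dam diets were compared in offspring fed LF, HF_LF against LF_LF (n = 10 each), which share no array with the animals above but come in part from the same cages (5 of the 8). There limma called 0 probes (0%), with 1051 at an unadjusted p under 0.05 and a lowest adjusted p of 0.0568. The test of whether the effect of the dam's diet differed between the feeds called 0 (0%), with 676 at an unadjusted p under 0.05 and a lowest adjusted p of 0.2112. Over all 8858 genes, the differences in HF-fed and LF-fed offspring were only weakly correlated (Pearson r = 0.103, Spearman 0.126). The genes that follow were picked and went either way. Dbp differed by 0.85 in HF-fed and 0.75 in LF-fed offspring. In the same order Usp2 differed by 0.45 and 0.62, Per2 by 0.22 and 0.38 and Dnajb9 by 0.40 and 0.39. Chac1 was at -0.79 in HF-fed against 0.48 in LF-fed offspring (unadjusted p of the difference 0.004706, adjusted p = 0.809), Bcl6 at 0.45 against -0.22 (adjusted p = 0.8001) and Slc6a15 at 0.12 against -0.10 (adjusted p = 0.619). The islet list had a median of -0.0125 in LF-fed offspring and the myeloid list -0.218.

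Of 5 body measurements in the labels, weight at 3 weeks alone passed the test over animals, and none passed over cage means, where 4 against 4 cages cannot give less than p = 0.0286, or 0.143 adjusted when a single measure reaches it. HF_HF mice weighed 11.61 ± 1.25 g and LF_HF mice 9.179 ± 1.00 g at that age (SD, n = 10 each; two-sided permutation test, p = 0.00027, adjusted p = 0.00135 over 5 measures). The cage means, 10.4 to 13 g in HF_HF and 8.18 to 10.2 g in LF_HF, did not overlap (exact permutation test, p = 0.0286, adjusted p = 0.143). A second weight, which the labels tie to weaning although it reached 34.06 g, was 30.53 ± 1.68 g in HF_HF and 30.33 ± 1.86 g in LF_HF (permutation p = 0.807). Glucose was 188.5 ± 42.8 mg/dl in HF_HF and 221.8 ± 29.3 mg/dl in LF_HF (permutation p = 0.0582, adjusted p = 0.146). Cage means of glucose gave an exact permutation p = 0.0571. Body length was 102.6 ± 1.06 mm (n = 8) in HF_HF and 102.3 ± 2.11 mm in LF_HF (exact permutation test, p = 0.788), and the body mass index was 0.2918 ± 0.0114 and 0.2897 ± 0.0136 in the same groups (exact permutation test, p = 0.732).

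**Figure D5:**
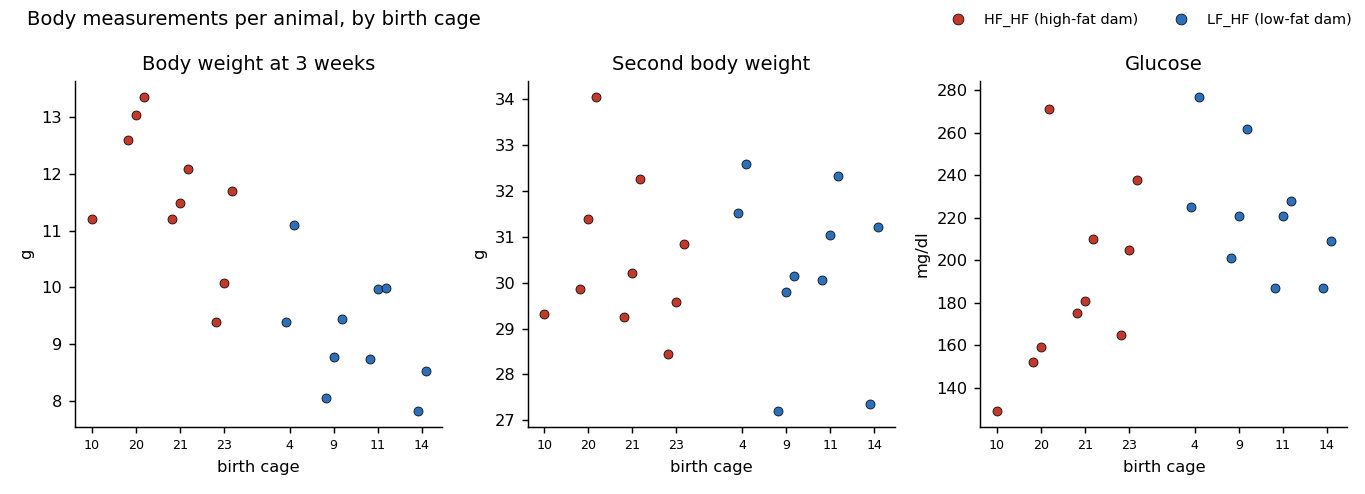
Each point is 1 animal, placed by birth cage, with HF_HF in red on the left and LF_HF in blue on the right; the panels give weight at 3 weeks (g), the second weight (g) and glucose (mg/dl). Weight at 3 weeks averaged 11.61 g in HF_HF and 9.179 g in LF_HF, and the second weights overlap fully.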

How the data were processed

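Whole pancreas RNA was hybridized to Illumina MouseRef-8 v2.0 beadchips. As deposited, each value is a linear fluorescence intensity; the authors used BeadStudio, did not subtract background and applied quantile normalization across all 40 arrays, and sorted values differed by at most 1.86% between arrays. No detection p-values were used. Intensities were transformed to log2, and the 12246 of 25697 probes above the median of their own array in at least 20 of 40 arrays were tested. Of all probes 23978 had 1 gene symbol and 1719 none (GEO's platform annotation; RefSeq gave a different symbol for 0); a gene was represented by its brightest tested probe. HF_HF was compared with LF_HF with limma 3.58.1 (R 4.3.3, intensity trend, two-sided), with Benjamini-Hochberg adjustment over tested probes, which the number of arrays limits in precision. Birth cages were handled as a random block (duplicateCorrelation) and as cage means with exact permutation tests. Replicate numbers follow accession order. Body measurements were compared with 100000 permutations, or exactly where a group was below 10. Figures were drawn with matplotlib 3.10.9. The fits were tested on simulated data.

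Named genes were all called genes (none), the 12 with the smallest p in each direction, the islet hormones, the 6 with the smallest p under the cage block, genes whose animals did not overlap (none) and up to 4 members of each described list by p; H3c14, Ranbp3l, Socs2, Socs3, Lgals4 and genes listed for a motif or for a call under 1 alternative were named after their values were seen. The comparison, the 41 lists and the tests were chosen with earlier results of these data known.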

Additional observations from a re-analysis of the deposited data

Results flagged for a closer look

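In groups of 10, a value was marked when it stood apart from its nearest neighbour by more than 0.466 of the group's range (Dixon's test), which chance does in about 1 in 20 groups. Of 242 groups checked (80 genes and 41 gene lists in both groups) 22 were marked (9.09%), and 14 of these came from LF_HF 1 (6), HF_HF 5 (5) and HF_HF 8 (3).

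LF_HF 1 had the highest LF_HF signal of Ambp (790, next 234), Apoa1 (1773, next 232), Ttr (1979, next 848) and Bcl6 (120, next 85.8), and the highest level of the hepatocyte list (2.99, next 0.776) and of the glutathione and NRF2 target list (0.183, next 0.0366). HF_HF 5 had the lowest HF_HF signal of Gcg (671, next 1353) and of Pdpk1 (100, next 116), and the highest level of the myeloid list (1.69, next 0.594), of the interferon-induced genes (0.417, next 0.0482) and of the acute phase, complement and coagulation genes (0.477, next 0.138). HF_HF 8 had the highest Acta2 signal (1171, next 264), muscle list (1.01, next 0.322) and duct epithelium list (0.189, next 0.0114). The part of other tissue in these arrays was not tested.

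In other arrays, the highest of its group was Scg5 in LF_HF 9 (124, next 95.5), Stc2 in HF_HF 7 (111, next 92.5), the islet hormone and granule list in LF_HF 9 (0.413, next 0.0324) and the fatty acid oxidation list in HF_HF 1 (0.412, next 0.142). The lowest of its group was Pnliprp1 in LF_HF 4 (22020, next 24450), Cela3b in HF_HF 3 (26680, next 30450), Gp2 in LF_HF 10 (22870, next 27220) and Cry2 in LF_HF 8 (58.0, next 69.3).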

How the results depend on the processing

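The count of 0 probes called for the dam's diet in HF-fed offspring held in 50 of 51 alternatives: 23 of cage, array, covariate, test, scaling and filter, and 28 that left out 1 animal or 1 cage, some of which coincide. Leaving out each animal or cage gave 0 to 1 calls, the 1 call being Ranbp3l, a nuclear transport protein, without cage 21 (log2 -0.60, adjusted p = 0.0333, against -0.41 and 0.7498 with all animals; its second probe was at -0.04). Probes at an unadjusted p under 0.05 ran from 353 with the regularized test to 1347 with no filter, and the lowest adjusted p from 0.0333 to 0.9999. In LF-fed offspring the count was 0 and became 6 without the intensity trend (Nrp1, Acaa2 with 2 probes, Per2, Coq10b and Ciart); neither array with doubtful signal is in that comparison, so leaving them out gave no value. For the difference between feeds it stayed 0 in 4 alternatives. With 1 mean per cage, the difference in weight at 3 weeks was 2.36 g with an adjusted p = 0.143, above the threshold (the lowest a single measure can reach with 4 against 4 cages), against 2.43 g, that of the second weight was -0.0612 g against 0.197 g, and that of the body mass index was -0.00167 against 0.00207. Of the 80 named genes, with 4074 values in these alternatives, none was called, and 5 changed sign once each: Gcg (-0.0189) and Sst (-0.0226) with the islet level as a covariate, Prss2 (-0.0277) and Reg2 (0.0161) with weight at 3 weeks, and Bhlhe40 (-0.0102) without cage 11, its other values without 1 animal or cage reaching 0.234. The 369 values of the 41 list medians moved by less than 1 SD between animals, but 65 of them, in 23 lists, changed sign. That SD was taken with the left-out arrays included, which widen it, so it cannot show that a median was stable. Of the 10 lists with a median beyond 0.05 in size, 4 did so: clock output (0.118, and -0.00676 without cage 11), the integrated stress response (-0.0503, and 0.0259 with 1 mean per cage and 0.016 without cage 11), the myeloid markers (0.132, and -0.023 without HF_HF 5) and the 2 Schwann cell and neuron markers (0.0666, and -0.0404 without LF_HF 1, HF_HF 5 and HF_HF 8). The Reg list was at -0.0218, and at 0.0387 with 1 mean per cage. Without LF_HF 8 and LF_HF 9 the clock output median was 0.0173. No paired analysis was possible because each cage held 1 dam diet only. Leaving out HF_HF 8, alone or with the other 2 arrays, HF_HF 5 with HF_HF 8, LF_HF 8 with LF_HF 9 and, for lists, cage 11 was added after the data were seen. Leaving out HF_HF 5 with HF_HF 8 is not among the 51 alternatives, and there Acta2 changed sign, to -0.0156. Array signals carry no read depth, and weak probes near the unsubtracted background understate differences, as the brightest probes, near the top of the scale, may too.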
